A study of Mus musculus with 3 samples.

Results

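The matrix proteases and their inhibitors were taken as all probes that the scanner files name Mmp, Adamts or Timp followed by a number, without the Adamtsl proteins, which resemble Adamts but lack the protease domain. These were 46 genes, of which 23 were Mmp, 19 Adamts and 4 Timp, on 61 probes and 79 spots. The whole array held 35290 gene names on 55681 probes and 59305 gene spots. A further 3 probes were named Adamts9, Adamts10 and Adamts18 in the files of the BP-treated cells alone and were not used for the gene values.

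Matrix metalloproteinases (Mmp) are zinc endopeptidases that are secreted or held at the cell surface as inactive proenzymes and cut collagens, proteoglycans and other matrix proteins once activated. Adamts proteases are secreted relatives that carry thrombospondin repeats and act on procollagens, aggrecan, versican and von Willebrand factor. The tissue inhibitors of metalloproteinases (Timp) bind the active site of these enzymes, and in cultured fibroblasts Mmp2, Mmp14 and Timp2 are known as constitutively expressed, whereas several collagenase and stromelysin genes are known as inducible by cytokines and growth factors.

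Total RNA was measured from cultured mouse embryonic fibroblasts (MEF cells), which the study grew from C57BL/6 embryos after taking off head, limbs and inner organs. n-Butylidenephthalide (BP, spelled n-Butylenephthalide in the series title) is a compound of Angelica sinensis. There were 3 samples with 1 array each, a control, MEF cells with 10 µg/ml BP (BP10) and MEF cells with 40 µg/ml BP (BP40), of which the control is labelled with the treatment none and described by the study as treated with DMSO, the solvent of BP. The length of the treatment and the number of embryos behind a culture are not given in the sources used here.

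Signals are given as log2 of the scanner's processed intensity minus the 75th percentile of the gene spots of the same array, so that 0 marks that percentile, and they are compared between arrays for 1 probe, not between probes. With 1 array per condition no ratio has a replicate check, no test was possible, and each ratio compares 2 arrays. The errors given with ratios are those of the scanner software's error model, which covers the measurement of a spot and nothing of the variation between cultures. For 4766 genes with 2 probes well above background on all 3 arrays, the probes of a gene differed with a median SD of 0.29 in the log2 ratio at BP10, 0.22 at BP40 and 0.21 between the doses. The control array was read in another scan session than the BP10 and BP40 arrays, so that in a ratio to the control an effect of BP cannot be told apart from one of the session. Of all gene spots, 81.7% were well above background on the control array, 68.3% at BP10 and 69.1% at BP40. A gene is called up- or down-regulated at 2-fold or more if either of the 2 arrays showed its probe well above background. Where 1 array alone did, a bound ("at least") is given, for which the dim probe was set to the weakest signal detected well above background on its array, or to its own signal if that was higher. The latter held for Mmp3 at BP10 and Adamts15 at BP40, whose values there are measured ratios and no strict bounds.

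By the probe that stands for each gene, the bright members, among them Timp1, Timp2, Timp3, Mmp2, Mmp14 and Adamts2, differed by less than 2-fold between the arrays. The called genes were dim. Of the 46 genes, 31 exceeded background well on every array, and 5 did so on no array. On the control array alone 8 members were above background, 17.4% of the members against 9.31% of all gene names. These were the collagenases Mmp1a, Mmp1b and Mmp13, the stromelysin Mmp3, Mmp21, Mmp27, Adamts15 and Adamts20. Mmp16 was above background at BP10 alone and Mmp15 on both BP arrays.

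**Figure D1:**
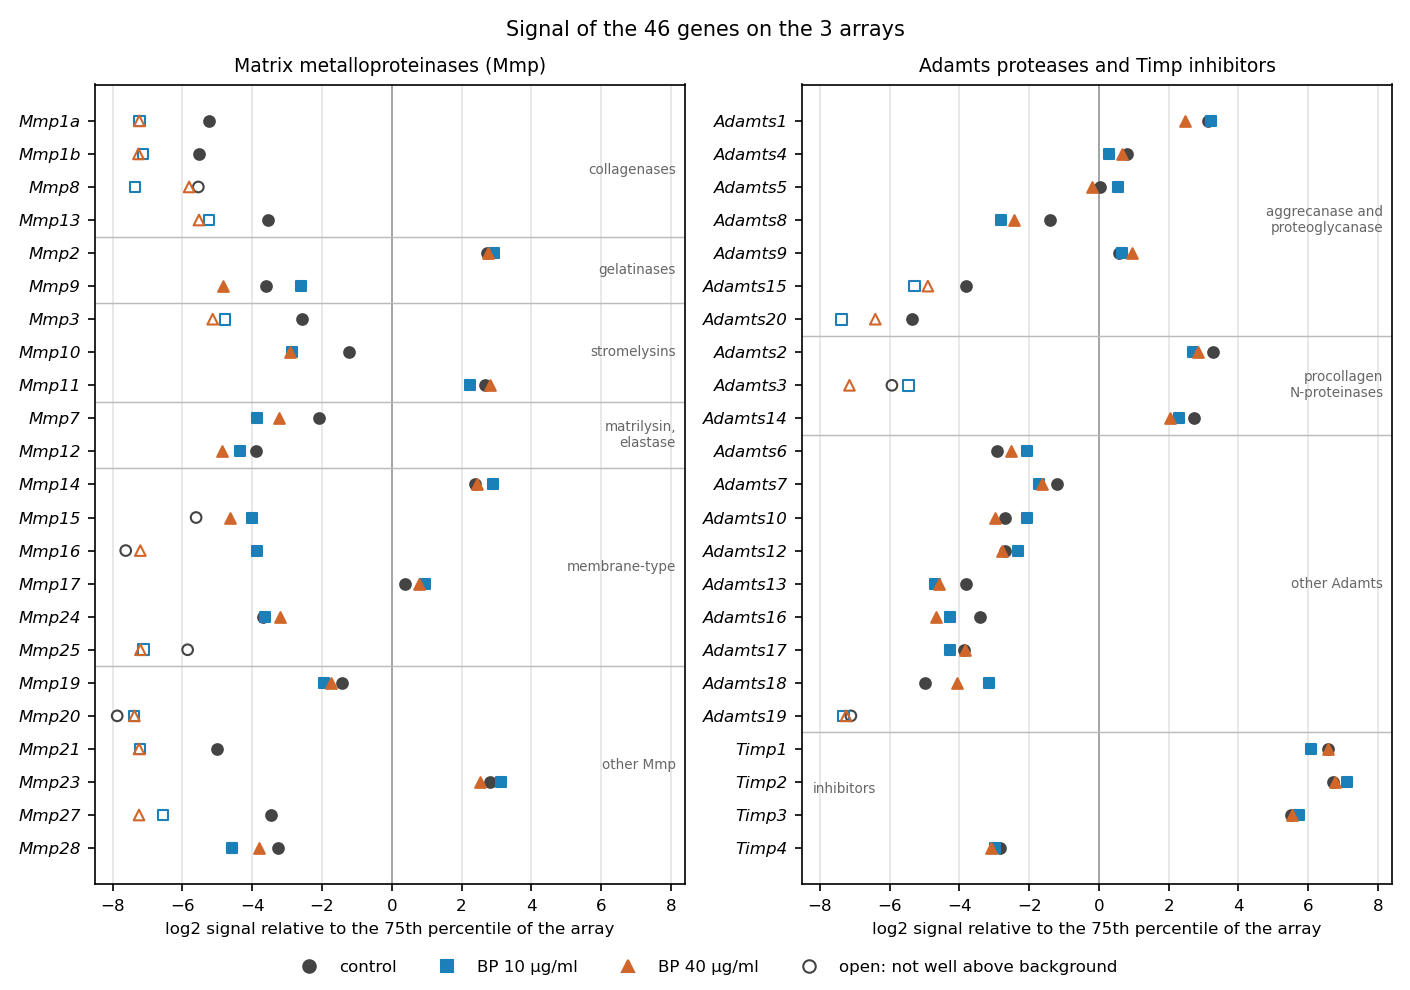
Normalized log2 signal (horizontal axis, 0 is the 75th percentile of the array) of the 46 genes on the control, BP10 and BP40 arrays, grouped by role, with open symbols where the probe was not well above background. The 3 symbols of Timp1, Timp2, Timp3, Mmp2, Mmp14 and Adamts2 lie close together on the right, and those of Mmp3, Mmp10, Mmp13 and Mmp27 lie apart with the control highest.

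In BP10-treated MEF cells 11 of the 46 genes were called, where the share over all gene names was 13.1%. Of these, 3 were up-regulated beside 2.55% of all genes and 8 down-regulated beside 10.6%. In BP40-treated MEF cells 9 members were called beside 11.7% of all genes, none up-regulated beside 2.46% and 9 down-regulated beside 9.21%. Both ratios share the control array and are not independent. Between BP40 and BP10, which were scanned together, 2 members were called beside 3.65% of all genes, and of these none was up-regulated beside 1.89% and 2 were down-regulated beside 1.76%. The median log2 ratio over all members was -0.42 at BP10 and -0.30 at BP40 against control, and -0.13 for BP40 against BP10. Over all gene names it was -0.24, -0.12 and 0.07. Over the 38, 37 and 33 members with a measured ratio or a bound the medians were -0.27, -0.29 and -0.17. The balance of directions depended on the scaling. With quantile normalization 5 members passed the threshold upwards at BP10 and 6 downwards, at BP40 2 upwards and 4 downwards, and it shifted the median of all genes by 0.19 and 0.11. Subtracting the median ratio of genes of the same brightness gave 6 up and 4 down at BP10, and 2 up and 2 down at BP40. A gene had 6 alternatives of scaling, background correction and detrending that could change its ratio, and 7 where it had further probes. Under each of these Mmp3 and Mmp10 were 2-fold or more lower at both doses, as were Mmp7 and Adamts8 at BP10, and Mmp16 was 2-fold or more higher at BP10.

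The ratio to the control array depended on brightness over the whole array, and dim genes were lower on both BP arrays. With brightness taken as the mean normalized log2 signal of the 3 arrays, 19 members lay below -4, 11 from -4 to -2, 2 from -2 to 0 and 14 at 0 or above. Among the 11 members from -4 to -2, 4 were down-regulated at BP10 beside 22.2% of all genes of that brightness, and 4 at BP40 beside 21.0%. Among the 19 members below -4, 4 were down-regulated at BP10 beside 12.1% and 5 at BP40 beside 10.5%. None of the 14 members at 0 or above was called in any of the 3 comparisons, where 2.21% of the genes of that brightness were called at BP10, 1.76% at BP40 and 1.69% between BP40 and BP10. The ratios of the called members are therefore also given relative to the median of the genes of the same brightness, in 20 classes of equal size, and with the bound in place of the ratio where 1 of the 2 arrays alone detected the gene. A bound less such a median is an adjusted value and no strict bound, also where it is called the bound below.

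**Figure D2:**
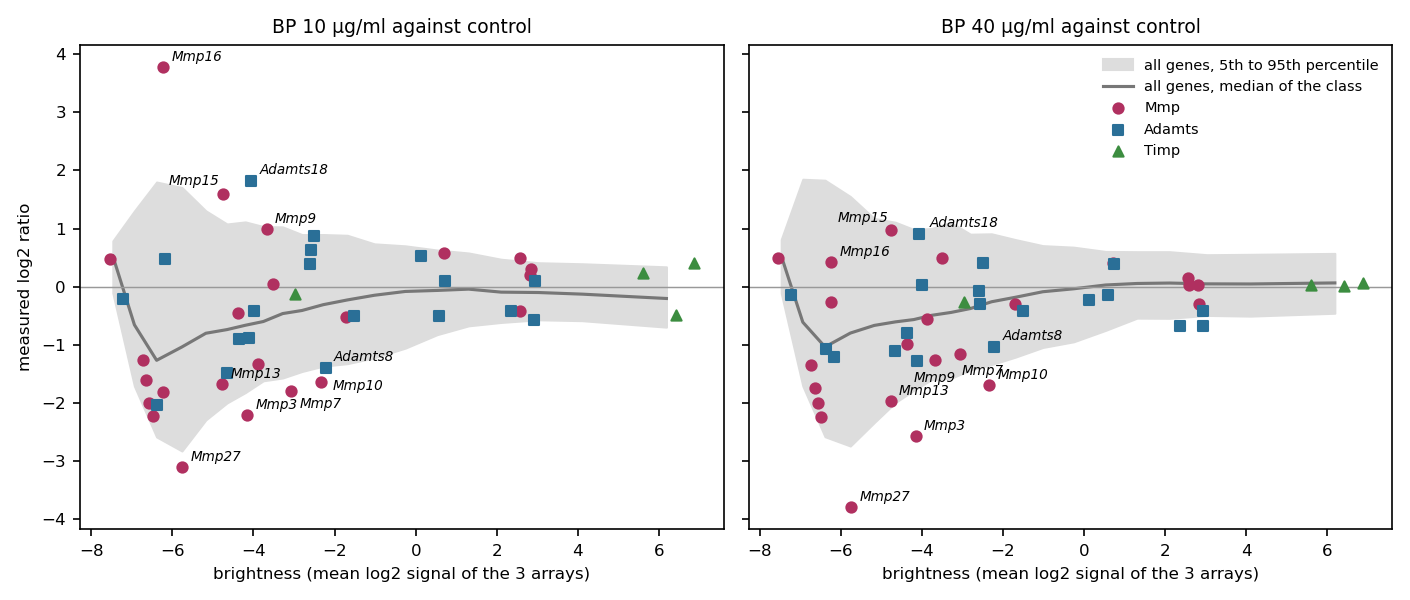
Measured log2 ratio to the control array against brightness (mean normalized log2 signal of the 3 arrays) for BP10 (left) and BP40 (right). Points are the 46 genes by family, the line is the median of all gene names in 20 brightness classes and the band runs from their 5th to their 95th percentile; Mmp3, Mmp10 and Mmp27 lie below the band in both panels and Mmp16 above it at BP10.

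The genes for the collagenases, stromelysins 1 and 2, matrilysin and macrophage elastase lie side by side. By the probe positions in the scanner files (mm9), 10 Mmp genes lay within 414.9 kb of chromosome 9, from 7282762 to 7697700, in the order Mmp13, Mmp12, Mmp1b, Mmp3, Mmp1a, Mmp10, Mmp8, Mmp27, Mmp20 and Mmp7, with 0 other named genes on the array between them. Of these 10 genes, 5 were down-regulated and none up-regulated at BP10, and 5 were down-regulated and none up-regulated at BP40. Over all genes 10.6% and 9.21% were down-regulated, and over those with a brightness from -4 to -2 22.2% and 21.0%. Over the genes below -4 these shares were 12.1% and 10.5%. Mmp10 and Mmp7 lay from -4 to -2 and the other cluster genes below -4. Of the 13 Mmp genes elsewhere, 2 were up- and 1 down-regulated at BP10, beside 2.55% and 10.6% of all genes. At BP40 1 of them was down-regulated, beside 9.21%. The median measured log2 ratio of the 10 genes was -1.74 at BP10 and -1.71 at BP40, and that of the other 13 was 0.20 and 0.03. Over the 6 cluster genes with a measured ratio or a bound the medians were -1.64 and -1.58. After the median of genes of the same brightness had been subtracted, the medians of the measured ratios were -0.84 and -0.84 in the cluster and 0.41 and -0.01 in the other 13. All 10 cluster genes were dim, with a brightness from -7.54 to -2.35, where the medians of all genes are also below 0 in all classes but the dimmest.

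Stromelysins degrade proteoglycans, fibronectin and laminin and activate other proMmps. Mmp10 (stromelysin 2) lay at -1.24 on the control array, -2.87 at BP10 and -2.93 at BP40, above background on all 3. It was 3.10-fold lower at BP10 (log2 ratio -1.63, scanner error 0.21) and 3.22-fold lower at BP40 (log2 ratio -1.69, scanner error 0.22). The control array was the highest, and BP10 and BP40 differed by -0.06, less than the spread between probes. Relative to genes of its brightness the ratio was -1.32 at BP10 and -1.43 at BP40. Mmp3 (stromelysin 1) lay at -2.56 on the control array and was not above background at BP10 (-4.78) or BP40 (-5.13). At its own undetected signal it was 4.64-fold lower at BP10 (log2 ratio -2.22, scanner error 0.36), and it was at least 5.74-fold lower at BP40. Relative to genes of its brightness the log2 ratio at BP10 was -1.55 and the bound at BP40 was -1.96.

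Mmp13, the collagenase known from mouse cartilage, bone and stimulated fibroblasts, was seen well above background on the control array alone. Its signal was -3.56 there, -5.24 at BP10 and -5.53 at BP40, which makes it at least 2.91-fold lower at BP10 and at least 2.88-fold lower at BP40. The call held under 4 of 6 alternatives at each dose, and relative to genes of its brightness the bound was -0.80 and -0.92, under 2-fold. Mmp1a and Mmp1b, the mouse counterparts of human interstitial collagenase, lie in the same cluster and are related copies, and whether their signals are separate was not tested. Mmp1a lay at -5.23 on the control array, -7.24 at BP10 and -7.24 at BP40, and Mmp1b at -5.53, -7.13 and -7.26. Both were above background on the control array alone and so close to it that no ratio could be given. Mmp8, the neutrophil collagenase, was not above background on any array (-5.54, -7.36 and -5.81).

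Mmp7 (matrilysin), a small protease without the hemopexin domain that is best known from epithelia, lay at -2.08 on the control array, -3.88 at BP10 and -3.24 at BP40. It was 3.48-fold lower at BP10 (log2 ratio -1.80, scanner error 0.24) and 2.23-fold lower at BP40 (log2 ratio -1.16, scanner error 0.22). The 2 BP arrays differed by 0.64, and relative to genes of its brightness the ratios were -1.34 and -0.72. The call at BP40 held under 3 of 6 alternatives. The 7 epithelial markers were above background for 5 genes on each array, with Epcam and Cdh1 not above it on any, and their summed scaled signal was 5.77 on the control array, 6.00 at BP10 and 5.03 at BP40. Their median log2 signal was -1.62, -1.92 and -2.19. Taken gene by gene, the median measured log2 ratio of the 7 epithelial markers was 0.06 at BP10 and -0.17 at BP40. Mmp27 lay at -3.45 on the control array and was not above background at BP10 (-6.56) or BP40 (-7.24). It was at least 3.12-fold lower at BP10 and at least 3.09-fold lower at BP40, a call that held under 4 of 7 alternatives at each dose. Relative to genes of its brightness the bound was -0.61 and -0.83, under 2-fold. The other Mmp27 probe was not above background on any array.

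Mmp12, the macrophage elastase, was above background on all arrays and just short of the 2-fold threshold at BP40. Its signal was -3.89 on the control array, -4.35 at BP10 and -4.88 at BP40, and the log2 ratios were -0.45 and -0.98. The other Mmp12 probe was not above background on any array. Mmp20, the enamel protease known from ameloblasts, was not above background on any array, with signals of -7.87, -7.39 and -7.38.

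**Figure D3:**
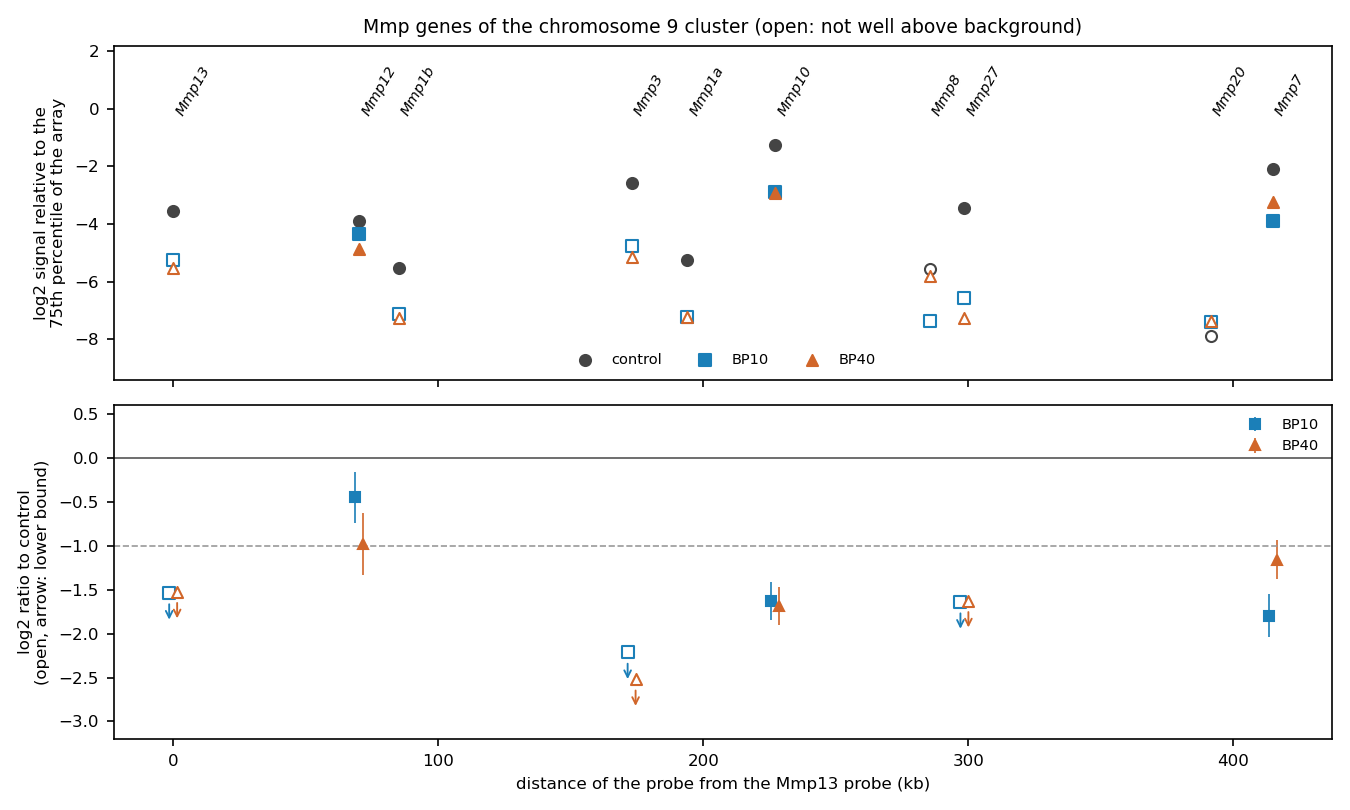
The 10 Mmp genes of chromosome 9 by the distance of their probe from the Mmp13 probe in kb, with the normalized log2 signal on each array above and the log2 ratio of BP10 and BP40 to the control array below. Open symbols in the upper panel are probes not well above background, open symbols with arrows in the lower panel are lower bounds, bars are the scanner error, and genes without a ratio are left blank; the ratios of Mmp13, Mmp3, Mmp10, Mmp27 and Mmp7 lie below the dashed 2-fold line. The open symbol of Mmp3 at BP10 is its measured ratio.

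The promoters of the cluster genes were read because these genes lie together and 5 of them were called at each dose. AP-1, the dimer of Fos and Jun proteins, is known to bind the collagenase and stromelysin promoters. RefSeq windows of GRCm38.p6, from 250 bases before to 50 after each start, were read for 32 of the 46 genes. Mmp2, Mmp9, Mmp16, Adamts8, Adamts15 and Adamts16 were among the members whose promoters were not read. The AP-1 element TGANTCA, searched on both strands, was found in 8 of the 10 cluster genes, in 0 of the 22 other members and in 8.97% of the 27025 genes with a window. The letters TATAAA of the TATA box, which did not overlap it, were found in 9 of the 10 cluster genes, in 2 of the 22 others (Adamts1 and Mmp21) and in 15.7% of all genes. Mmp8 and Mmp27 held no TGANTCA in their windows, and Mmp27 no TATAAA. Mmp7 and Mmp12 each had 2 windows, of which 1 held the matches. The 130 bases before the start are shown for the 5 called genes of the cluster and Mmp1a, and for the bright genes Mmp14 and Timp2 as a contrast, with TGANTCA and TATAAA in capitals.
Mmp13 (chr9:7272384-7272513, plus strand): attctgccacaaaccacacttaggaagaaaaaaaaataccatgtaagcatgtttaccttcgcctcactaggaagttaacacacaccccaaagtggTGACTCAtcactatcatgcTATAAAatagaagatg
Mmp3 (chr9:7445692-7445821, plus strand): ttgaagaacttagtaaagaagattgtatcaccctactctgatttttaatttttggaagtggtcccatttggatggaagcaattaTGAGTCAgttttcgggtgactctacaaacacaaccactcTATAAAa
Mmp10 (chr9:7502212-7502341, plus strand): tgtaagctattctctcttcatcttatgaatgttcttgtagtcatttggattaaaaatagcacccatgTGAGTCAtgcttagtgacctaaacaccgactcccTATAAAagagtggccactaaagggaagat
Mmp7 (chr9:7691960-7692089, plus strand): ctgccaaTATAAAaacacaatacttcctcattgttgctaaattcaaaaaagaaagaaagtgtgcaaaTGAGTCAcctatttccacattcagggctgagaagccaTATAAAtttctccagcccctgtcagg
Mmp1a (chr9:7464011-7464140, plus strand): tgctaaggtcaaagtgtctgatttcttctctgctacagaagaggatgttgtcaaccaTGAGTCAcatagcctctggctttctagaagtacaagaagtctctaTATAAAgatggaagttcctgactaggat
Mmp27 (chr9:7571266-7571395, plus strand): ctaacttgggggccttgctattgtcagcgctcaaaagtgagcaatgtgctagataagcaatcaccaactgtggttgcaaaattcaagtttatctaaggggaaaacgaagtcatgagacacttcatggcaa
Mmp14 (chr14:54431468-54431597, plus strand): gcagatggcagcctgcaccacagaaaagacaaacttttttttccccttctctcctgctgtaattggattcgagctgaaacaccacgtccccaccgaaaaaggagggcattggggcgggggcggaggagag
Timp2 (chr11:118355412-118355541, minus strand): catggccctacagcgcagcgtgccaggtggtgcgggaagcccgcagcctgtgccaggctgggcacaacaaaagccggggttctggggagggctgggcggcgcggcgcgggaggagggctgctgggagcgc

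Counted from the start, with the base before it as -1, TGANTCA began at -35 in Mmp13, -46 in Mmp3, -63 in Mmp10, -63 in Mmp7 and -73 in Mmp1a. TATAAA began at -16 in Mmp13, -7 in Mmp3, -29 in Mmp10 and -28 in Mmp1a, and Mmp7 held 2 matches, both shown in capitals. Among the called genes of the cluster, TGANTCA was found in all but Mmp27, which was down-regulated without either match in its window. Among the cluster genes that were not called, TGANTCA was found in all but Mmp8. The element thus did not set the called cluster genes apart from the others. Outside the cluster, the called genes Mmp15, Mmp28 and Adamts18 held no TGANTCA in their windows. Mmp1b held TGANTCA at -93 and Mmp20 at -95. The match reads TGAATCA in Mmp20 and TGAGTCA or TGACTCA in the other cluster genes that hold it. TATAAA began at -49 in Mmp1b, -58 in Mmp20 and -3 in Mmp8, and at 5, after the start, in Mmp12. The TATAAA matches thus did not lie at 1 distance from the start. The matches are a description of these windows and were not measured as bound sites here.

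The gelatinases Mmp2 and Mmp9, which cut denatured collagen and basement membrane collagen, showed different courses. Mmp2, known as the constitutive gelatinase of fibroblasts, lay at 2.74 on the control array, 2.94 at BP10 and 2.77 at BP40, with log2 ratios of 0.20 and 0.03. Mmp9, known from leukocytes and osteoclasts, was measured by 10 spots of 1 probe on each array. Over those spots its mean signal was -3.59 ± 0.27 (SD, 10 spots) on the control array, -2.60 ± 0.11 (SD, 8 spots, as 2 outliers were left out) at BP10 and -4.85 ± 0.48 (SD, 10 spots) at BP40. The spots ran from -4.01 to -3.14 on the control array, from -2.75 to -2.45 at BP10 and from -5.67 to -4.33 at BP40, so that the 3 arrays did not overlap. All 10 spots were well above background on the control array and at BP10, and 6 of 10 at BP40. The log2 ratio to the control array was 0.996 at BP10, 1.99-fold and just under the threshold, and -1.25 at BP40, 2.38-fold lower. Between BP40 and BP10 it was -2.25, 4.76-fold lower at BP40, and this ratio does not use the control array. Over 6 alternatives the ratio of BP40 to BP10 ran from -2.33 to -1.18, and the call at BP40 against the control array held under 3 of 6. Relative to genes of its brightness the log2 ratio was 1.59 at BP10, -0.76 at BP40 and -2.31 between the doses. The spread between spots covers the measurement within 1 array, not the variation between cultures.

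**Figure D4:**
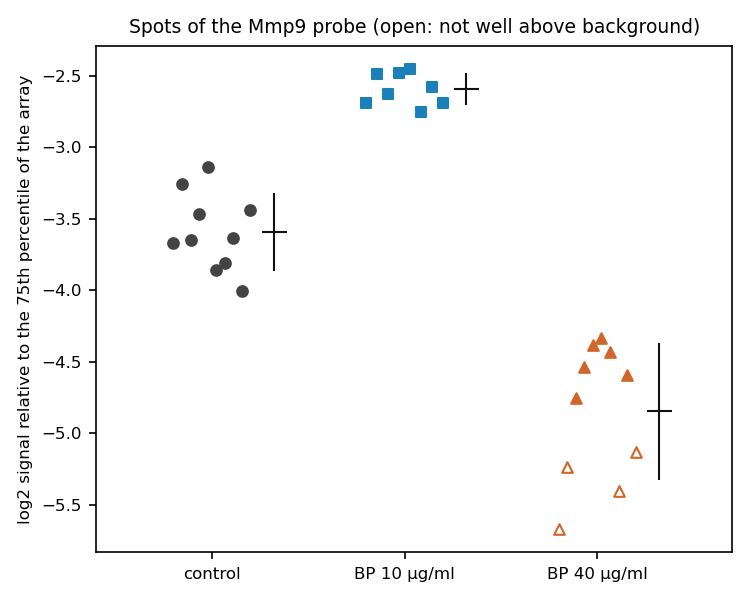
Normalized log2 signal of the single spots of the Mmp9 probe on the control, BP10 and BP40 arrays, with the mean and SD of the spots beside them and open symbols for spots not well above background. The 8 spots used at BP10 lie above all 10 control spots, and all 10 spots at BP40 lie below them.

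Markers of cells known to express Mmp8, Mmp9, Mmp12 and Mmp25 were set beside these genes. All 12 macrophage markers on the array were above background on all 3 arrays, and their summed scaled signal was 39.7 on the control array, 33.2 at BP10 and 37.0 at BP40. A sum over probes weighs the brightest ones most, here Itgam with 4.51 on the control array. The median log2 signal of the macrophage markers was 0.00, 0.40 and 0.40. Taken gene by gene, their median log2 ratio to the control array was -0.18 at BP10 and 0.06 at BP40. None of these markers was down-regulated, and Lyz2 alone was called, with log2 ratios of 1.09 and 1.25. Of 7 neutrophil markers, 4 were above background on the control array, 3 at BP10 and 4 at BP40, with summed signals of 3.83, 2.48 and 3.19. Most of that sum came from Elane, which was bright at 1.84, 1.13 and 1.48. The markers S100a8 and Ngp were not above background on any array. Elane, Mpo and Camp were above it on all 3, and Camp was up-regulated at BP40 with a log2 ratio of 1.16. The part of such cells in the ratios was not tested. In such bulk RNA, fewer cells of a type and less RNA per cell cannot be told apart. The 12 fibroblast markers were above background on all 3 arrays, with a summed signal of 1584, 1156 and 1255. Their median log2 ratio was -0.66 at BP10 and -0.64 at BP40, beside -0.24 and -0.12 over all gene names. Of the 12, 2 were down-regulated at BP10 beside 10.6% of all genes, and 3 at BP40 beside 9.21%. Over genes with a brightness of 0 or above, where all 12 but Lum lay, these shares were 1.64% and 0.930%. Lum was down-regulated at both doses, with log2 ratios of -3.21 and -2.22. Dcn was down-regulated at BP10 with -1.06, and Col3a1 and Postn at BP40 with -1.23 and -1.04. The 10 cartilage and bone markers were also above background on all arrays, with 7.17, 7.54 and 6.90, and 5 of 7 endothelial markers, with 8.45, 6.68 and 8.53, but not the endothelial Cdh5 and Tie1. Of the endothelial genes, Cldn5 was down-regulated at both doses, with -1.30 and -1.07, and Emcn had log2 ratios of 0.84 at BP10, -1.09 at BP40 and -1.93 between the doses. Of the cartilage and bone genes, Ibsp was down-regulated at BP10 with -1.64 and Bglap at BP40 with -1.12, and Comp was up-regulated at BP40 with 1.11, and of the epithelial genes Krt5 was down-regulated at BP40 with -1.05.

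Membrane-type Mmps are anchored at the cell surface, where Mmp14 is known to cut fibrillar collagen and to activate proMmp2 together with Timp2. Mmp14 lay at 2.40 on the control array, 2.90 at BP10 and 2.43 at BP40, with log2 ratios of 0.50 and 0.04. Mmp17, which is held by a GPI anchor, lay at 0.38, 0.96 and 0.79, with log2 ratios of 0.58 and 0.41. Both stayed within 2-fold. Mmp15 was not above background on the control array (-5.61) and was above it at BP10 (-4.01) and BP40 (-4.64). It was at least 2.90-fold higher at BP10 and, short of the threshold, at least 1.87-fold higher at BP40. The call at BP10 held under 5 of 6 alternatives, and relative to genes of its brightness the bound was 2.27. Mmp16 was above background at BP10 alone, with -3.85 against -7.63 on the control array and -7.21 at BP40. It was thus at least 3.23-fold higher at BP10 than on the control array and at least 2.34-fold lower at BP40 than at BP10, the latter under 5 of 6 alternatives. Relative to genes of its brightness these values were 2.96 and -1.25. The 2.96 is larger than the bound of 1.69 itself, because the class median subtracted was -1.27, and it is no lower bound. That class runs from -6.66 to -6.08, below the weakest signal detected well above background on each array. It rests on 1 spot per array, and its probe spans 2 exons on chromosome 4 (mm9, 18020570 to 18037588).

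Mmp24 had 2 probes that disagreed. The probe above background on all arrays gave -3.70, -3.64 and -3.19 on the control, BP10 and BP40 arrays, with log2 ratios of 0.05 and 0.50. The other gave -4.65, -5.33 and -6.80, was above background on the control array alone and had measured ratios of -0.69 and -2.15. Mmp25, the leukocyte membrane-type protease, was not above background on any array.

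Among the other Mmps, Mmp11 (stromelysin 3, known from stromal fibroblasts) and Mmp23 were bright and stayed within 2-fold. Mmp11 lay at 2.66 on the control array, 2.24 at BP10 and 2.81 at BP40, and its other probe gave log2 ratios of -0.11 and 0.32 beside -0.42 and 0.15. Mmp23 lay at 2.83, 3.14 and 2.53. Mmp28 (epilysin, known from keratinocytes and wound repair) was 2.51-fold lower at BP10, with signals of -3.25, -4.58 and -3.80. At BP40 it was not called, with a log2 ratio of -0.55, and its other probe gave measured ratios of -1.05 and -0.69. The call at BP10 held under 4 of 7 alternatives, and relative to genes of its brightness the log2 ratio was -0.73. Mmp21 had 2 probes whose measured ratios were -2.22 and -0.98 at BP10 and -2.25 and -1.03 at BP40. Both were close to background on the control array, so that the bound for the gene was 1.07-fold and 1.06-fold, and Mmp21 was not called. Mmp19 lay at -1.43, -1.95 and -1.74, with log2 ratios of -0.52 and -0.31.

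**Figure D5:**
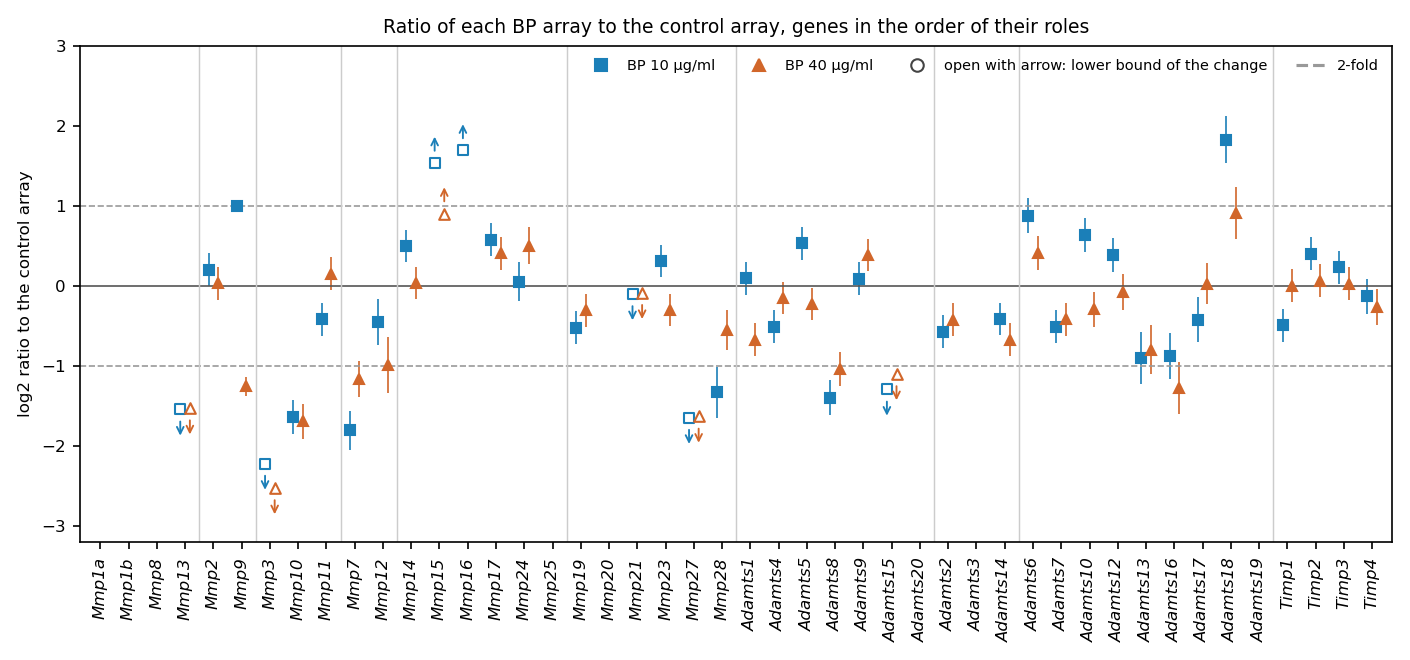
Log2 ratio of BP10 and BP40 to the control array for the 46 genes in the order of their roles, with bars for the scanner error, open symbols with arrows for lower bounds, a dashed line at 2-fold and no symbol where no ratio could be given. Past the lower line lie 8 genes at BP10 and 9 at BP40, 5 of them each time from the chromosome 9 cluster, and Adamts18, Mmp15 and Mmp16 at BP10 are past the upper line. The open symbols of Mmp3 at BP10 and Adamts15 at BP40 are measured ratios.

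Of the 19 Adamts genes, 15 were above background on all 3 arrays, 1 was up- and 2 were down-regulated at BP10 beside 2.55% and 10.6% of all genes, and 3 were down-regulated at BP40 beside 9.21%, counts near those shares. The aggrecanases and proteoglycanases, which cut aggrecan and versican, held 2 called genes of 7. Adamts8 lay at -1.41 on the control array, -2.80 at BP10 and -2.44 at BP40. It was 2.63-fold lower at BP10 (log2 ratio -1.39, scanner error 0.22) and 2.04-fold lower at BP40 (log2 ratio -1.03, scanner error 0.21), the latter just past the threshold. Adamts15 lay at -3.80 on the control array and was not above background at BP10 (-5.28) or BP40 (-4.90). It was at least 2.45-fold lower at BP10 and, at its own undetected signal, 2.14-fold lower at BP40 (scanner error 0.37). That call held under 3 of 6 alternatives at each dose, and that of Adamts8 at BP40 under 3 of 7. Relative to genes of their brightness the log2 ratio of Adamts8 was -1.08 and -0.77, and the value of Adamts15 was -0.55 and -0.49. Adamts8 and Adamts15 have neighbouring probes on chromosome 9 (mm9, from 30751050 and 30707033), far from the Mmp cluster. Adamts20, known for its part in pigment cell migration, was above background on the control array alone and too close to it for a ratio.

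The bright proteoglycanases stayed within 2-fold on all 3 arrays. Adamts1, an early response gene with a role in ovulation, lay at 3.12 on the control array, 3.22 at BP10 and 2.45 at BP40, with log2 ratios of 0.09 and -0.67. Adamts4 and Adamts5, the main aggrecanases of cartilage, had log2 ratios of -0.51 and 0.53 at BP10 and of -0.15 and -0.22 at BP40. Adamts4 lay at 0.80, 0.29 and 0.65, and Adamts5 at 0.03, 0.56 and -0.20. The other Adamts5 probe gave -0.84 and -0.13, opposite in sign at BP10 by more than 2-fold between the probes. Adamts9 lay at 0.57, 0.66 and 0.96, and its partly named probe gave log2 ratios of 0.41 and 0.04 beside 0.09 and 0.39. For Adamts10 the partly named probe gave 0.66 and -0.62 beside 0.64 and -0.29.

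The procollagen N-proteinases remove the aminopropeptide of fibrillar procollagens. Adamts2, the principal enzyme for type I procollagen, lay at 3.26 on the control array, 2.69 at BP10 and 2.84 at BP40, and Adamts14 at 2.71, 2.30 and 2.05. Their log2 ratios were -0.57 and -0.42 for Adamts2 and -0.41 and -0.67 for Adamts14, within 2-fold. The dimmer Adamts14 probe was lower, with ratios of -1.37 and -1.98. The dimmer Adamts2 probe, above background on all arrays, gave -0.55 and -1.03, past 2-fold at BP40. Adamts3 was not above background on any array.

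Adamts18 was the called gene that was higher at BP10 with a measured ratio on both arrays. It lay at -4.97 on the control array, -3.15 at BP10 and -4.06 at BP40, and was 3.55-fold higher at BP10 (log2 ratio 1.83, scanner error 0.29). At BP40 the log2 ratio was 0.91 with a scanner error of 0.33, short of the threshold. Relative to genes of its brightness the ratios were 2.49 and 1.48. A partly named Adamts18 probe, above background on the control array alone, gave measured ratios of -0.31 and -1.89, so that the probes do not give 1 direction. With that probe included the median over probes was 0.76 at BP10, under 2-fold. Adamts16, with signals of -3.40, -4.27 and -4.67, was 2.41-fold lower at BP40 and, short of the threshold, 1.83-fold lower at BP10. Its other probe gave -0.39 at BP10 and 0.22 at BP40, and the call held under 3 of 7 alternatives. Its log2 ratio at BP40 was -0.70 relative to genes of its brightness. For Adamts12 the probe used had ratios of 0.38 and -0.07, and the other probe, above background at BP10 alone, measured ratios of 2.25 and -0.17. For Adamts13, the protease of von Willebrand factor, the probe used had -0.90 and -0.79 and the other -2.22 and -0.59. Adamts6, Adamts7, Adamts10 and Adamts17 ranged from -0.51 to 0.88 at BP10 and from -0.41 to 0.41 at BP40, and Adamts19 was not above background on any array.

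The 4 inhibitors stayed within 2-fold on all 3 arrays. Timp1, the inducible inhibitor, lay at 6.57 on the control array, 6.08 at BP10 and 6.58 at BP40, with log2 ratios of -0.49 and 0.005. Timp2, which also takes part in proMmp2 activation, lay at 6.72, 7.12 and 6.78, with ratios of 0.40 and 0.06. Its other probe gave 0.09 and 0.13. Timp3, which is held in the matrix and also inhibits aggrecanases, lay at 5.51, 5.75 and 5.54, with ratios of 0.23 and 0.03. Timp4 was dim but above background on all arrays, at -2.84, -2.97 and -3.10, with ratios of -0.13 and -0.26. The ratios at BP10 ran from -0.49 to 0.40 and those at BP40 from -0.26 to 0.06, and the scanner error was from 0.20 to 0.22. The BP40 ratios of Timp1, Timp2 and Timp3 lay within that error.

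A list of 50 other genes of extracellular proteolysis, all on the array, was set beside the members. At BP10, 3 of the 50 were called, all down-regulated, beside 13.1% of all genes. These were the protease inhibitor A2m, at least 2.05-fold lower, the surface peptidase Dpp4, at least 2.10-fold lower, and the proteoglycan Spock1, 2.06-fold lower. At BP40, 3 were called beside 11.7%, A2m (at least 2.03-fold lower), Dpp4 (at least 2.08-fold lower) and Adamtsl2, a fibrillin-binding protein (4.02-fold lower). Between BP40 and BP10, 5 were called beside 3.65%. Spock1 was higher at BP40 by a log2 ratio of 1.32, its relative Spock2 was at least 2.01-fold higher, and Tll1, Pcolce2 and Adamtsl2 were lower, by -1.07, -1.33 and -1.40. Tll1 is a relative of the procollagen C-proteinase Bmp1, and Pcolce2 enhances that enzyme. The median log2 ratio of the list was -0.18 at BP10 and -0.04 at BP40.

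The bright genes of the list described here stayed within 2-fold of the control array. The plasminogen activator Plat lay at 2.38 on the control array, 1.97 at BP10 and 1.47 at BP40, and the urokinase receptor Plaur at 3.52, 4.11 and 3.73. The proMmp convertase Furin lay at 3.63, 3.10 and 3.60, and Bmp1 at 4.80, 4.87 and 4.63. Bsg, which is known to induce Mmps in fibroblasts, had log2 ratios of 0.54 and 0.36, and the endocytic receptor Lrp1 of 0.40 and 0.16. Among the cathepsins, Ctsb, Ctsd, Ctsk and Ctsl ranged from -0.55 to 0.15 at BP10 and from -0.52 to 0.29 at BP40. Htra1, a secreted serine protease, had ratios of 0.07 and 0.85. Pcolce, the enhancer of procollagen C-proteinase, had -0.48 and -0.65, and Pcolce2 0.44 and -0.89. The cystatin Cst3 and the membrane proteases Adam9, Adam10, Adam15, Adam19 and Adam23 ranged from -0.33 to 0.06 at BP10 and from -0.36 to 0.41 at BP40.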

How the data were processed

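Total RNA of 3 MEF samples, 1 per condition, was hybridised to 1-colour mouse arrays of 60-base probes, and probe positions are mm9 per the file headers. The authors deposited the scanner output of Feature Extraction 10.5.1.1, whose processed intensity is background-subtracted and, on the BP10 and BP40 arrays, multiplicatively detrended. The deposited table of values for the series holds the same intensity, so that this alternative could change nothing.

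Control spots were left out, log2 of the processed intensity minus the 75th percentile of the gene spots was taken, and spots of 1 probe were averaged without outliers. A gene was represented by the probe well above background on most arrays and then by the brightest. A call needed a 2-fold difference and detection well above background by either array. Since no condition had a replicate, no test was run. Genes were named when they were a Timp, were called, were above background on all arrays and at 0 or above on 1, or had probes whose ratios differed by 1 or more on the log2 scale, and further members were added for their role after their values were seen. From the list of other proteolysis genes, those called or at 2 or above on the control array were named, with Cst3 and the Adam genes given by their range, and 1 gene that met this rule is not reported here. The members, gene lists, marker lists and motifs were chosen with earlier results of these data known. Alternatives were quantile normalization, normexp background correction with an offset of 50 (limma 3.58.1, R 4.3.3), other 75th percentiles, the median over the probes of a gene, the median ratio of 20 brightness classes subtracted, 1.5-fold and 3-fold thresholds and other filters on dim probes. The signal without detrending, the measured ratio in place of the bound and the partly named probes were added after the data had been seen. Calculations used Python 3.11.15 with numpy 2.4.6 and pandas 2.3.3, and were tested on simulated data. Promoter windows were those of RefSeq (GRCm38.p6), matched by symbol. Their coordinates are not on the build of the probes.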

Additional observations from a re-analysis of the deposited data

Results flagged for a closer look

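Mmp9 lay on opposite sides of the control array at the 2 doses, with log2 ratios of 0.996 at BP10, just short of the threshold, and -1.25 at BP40. The log2 ratio of BP40 to BP10 was -2.25. The difference was not tested, because each dose had 1 array, and its cause was not tested.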

How the results depend on the processing

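No paired analysis was possible because there was 1 array for each condition, and no array could be left out for the same reason. Alternatives that could not change a value (the series table, and the median of probes for genes with 1 probe) are left out of these counts. Of the 139 values of called genes, 79 moved by less than the median SD between probes of a gene and 60 by more, and none reversed in direction. Of the counts of called genes, 41 of 78 stayed within 1.5 times the reported count. Those that did not are given for BP10 and BP40 relative to the control array and then between the doses, and the cause was not tested unless the threshold itself sets it. For the members, the counts of 11, 9 and 2 became 17, 15 and 4 when dim probes were kept, 5, 5 and 1 with both arrays above background, and 6, 2 and 1 with normexp. A 3-fold threshold gave 6, 3 and 1. A 1.5-fold threshold gave 15 and 10 in the latter comparisons, and subtracting the brightness class gave 4 at BP40. The median of probes with the partly named ones gave 5 between the doses. For the 50 other proteolysis genes, the counts of 3, 3 and 5 became 1, 1 and 3 without detrending, 0, 1 and 2 with normexp, 10, 15 and 11 at 1.5-fold and 0, 1 and 0 at 3-fold. At BP10 and BP40 they were 7 and 8 with no filter and 1 and 1 with both arrays above background. Quantile normalization and the brightness class gave 0 at BP10, the measured ratio in place of the bound gave 5 at BP40, and the median of probes gave 3 between the doses, with or without the partly named ones. The median ratio of the members at BP10 was -0.0583 with normexp, and the other 23 of 24 medians stayed within that SD. Of all called genes at BP10, 19.4% were up-regulated as reported and 50.2% after quantile normalization, 31.4% with normexp and 65.6% with the brightness class subtracted. At BP40 these shares were 21.1%, 54.3%, 44.4% and 62.3%. Ratios of dim probes near background are limited by their signal.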
